A study of Mus musculus with 8 samples.

Results

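The CREB, CREM, CRTC and SIK genes are 10 genes of the transcriptional branch of cyclic AMP (cAMP) signalling: the transcription factors *Creb1*, *Crem* and *Atf1*, the coactivators *Crtc1*, *Crtc2* and *Crtc3*, the salt-inducible kinases *Sik1*, *Sik2* and *Sik3*, and *Ppargc1a*, which encodes the coactivator PGC-1α. They were taken from a list of gene symbols, drawn up with earlier results of these data known, and all 10 were among the 22873 genes in the data. Single-nucleus RNA-seq of wild-type (WT) mouse irises, with some ciliary body attached, had been carried out on 8 libraries, each from a separate pool of 5 or 6 irises of albino female mice aged 6 to 8 weeks. The 2 dilated libraries came from eyes that had received phenylephrine (5%, an alpha-1 adrenergic agonist) with cyclopentolate (1%, a muscarinic antagonist) hourly for 6 hours in the dark. The 3 constricted libraries came from eyes that had received pilocarpine (5%, a muscarinic agonist) on the same schedule in the light, both treatments ending 30 minutes before collection, and the 3 untreated libraries came from eyes that had received no drops. Drug and lighting differed together between dilated and constricted mice and cannot be told apart. Between dilated and untreated mice the drugs, the hourly drops and the width of the pupil differed together and cannot be told apart either. The lighting of untreated mice is not given. The question addressed here is whether the genes that carry a cAMP signal to transcription differ among the 10 cell types of the iris, and whether their transcripts change when the pupil is held open or closed.

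In most cells cAMP activates protein kinase A (PKA), which phosphorylates CREB1, CREM and ATF1 and so brings the coactivators CBP and p300 to genes with a cAMP response element. The CRTC proteins are a second input to the same genes: SIKs phosphorylate them and hold them in the cytoplasm, PKA inhibits the SIKs, and the phosphatase calcineurin releases the CRTCs to the nucleus. *Sik1*, *Ppargc1a*, the NR4A genes and a short repressor form of *Crem* are themselves textbook targets of this pathway, so that transcripts of some members are part of its output and transcripts of others are not. Most regulation of CREB1, the CRTCs and the SIKs is by phosphorylation and location, which RNA does not show. In the dilator muscle, an epithelial smooth muscle that opens the pupil, contraction is driven by alpha-1 adrenergic receptors, and in the sphincter muscle, which closes it, by muscarinic receptors.

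Values are counts of unique molecular identifiers (UMIs, each standing for 1 captured RNA molecule), added up over the nuclei of a type in a library, and levels are counts per 1000000 summed UMIs (CPM). RNA of nuclei includes introns, and the counts are per gene, so that the forms of *Crem* cannot be told apart. The libraries held 1274 to 7321 nuclei (34357 in all) and 5189437 to 25136427 UMIs, with a median of 2775 to 4697.5 UMIs per nucleus. Untreated 1 and dilated 1 shared 63 cell barcodes, 4.26% of the nuclei of the smaller library, against 18 at most in any other pair. Leaving those nuclei out left the number of pairs of member and cell type called with dilation at 7. The dilator muscle label was checked with *Adra1a*, *Nos1* and *Myh11*, whose summed level in dilator nuclei was 2406 to 2832 CPM in untreated, 2654 to 2909 CPM in constricted and 1583 to 1623 CPM in dilated libraries, with none of the 3 genes at 0. The same sum in untreated libraries was 97.4 to 102 CPM in iris pigment epithelium (PE) and 57.4 to 63.5 CPM in stroma 1. It was 2722 to 3210 CPM in sphincter 1 and 2776 to 3413 CPM in sphincter 2. The sum thus sets muscle apart from the other types and does not set dilator apart from sphincter. Gene by gene, *Adra1a* and *Nos1* had their highest untreated mean in dilator muscle (479 and 246 CPM). *Myh11* had its highest in sphincter 1 (2940 CPM, against 1931 CPM in dilator muscle).

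RefSeq promoter sequences (GRCm38.p6, from 250 bases before to 50 bases after the start) were at hand for 7 of the 10 genes, and not for *Crem*, *Crtc2* and *Sik1*. Only 1 start per gene was scanned, and any other starts of these genes, *Ppargc1a* included, were not looked at. The palindromic cAMP response element TGACGTCA was in none of these 7 stretches, against 1.79% of 32851 promoters of all genes. TGACGT, read on both strands, was in the promoters of *Ppargc1a*, *Sik2* and *Sik3*, against 7.51% of all promoters, and the shorter TGACG, which every TGACGT contains, was in 4 of the 7 (the same 3 and *Atf1*) against 20.8% of all promoters. The 3 promoters with TGACGT are printed from 150 bases before to 30 bases after the start because their genes are the 3 of the 7 that rose in dilated dilator muscle. They lie at chr5:51567696-51567875 (minus strand), chr9:51009044-51009223 (minus strand) and chr9:46012670-46012849 (plus strand), and capitals mark TGACG or its complement CGTCA.
Ppargc1a: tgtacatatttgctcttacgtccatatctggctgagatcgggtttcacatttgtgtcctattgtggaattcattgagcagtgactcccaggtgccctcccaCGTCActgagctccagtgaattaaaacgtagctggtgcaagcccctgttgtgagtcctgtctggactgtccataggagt
Sik2: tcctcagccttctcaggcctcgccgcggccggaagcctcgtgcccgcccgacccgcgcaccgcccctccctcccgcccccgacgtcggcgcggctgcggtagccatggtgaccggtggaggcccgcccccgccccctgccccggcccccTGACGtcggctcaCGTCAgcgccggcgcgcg
Sik3: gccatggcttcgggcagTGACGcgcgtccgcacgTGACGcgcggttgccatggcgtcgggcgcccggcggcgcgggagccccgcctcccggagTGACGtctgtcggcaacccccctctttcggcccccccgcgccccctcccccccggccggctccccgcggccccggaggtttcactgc
*Ppargc1a* held 1 match, *Sik2* held 2, at and just after the start, and *Sik3* held 3. The *Sik2* and *Sik3* stretches had 80.6% and 78.9% G or C bases and the *Ppargc1a* stretch 48.9%. The shares over all promoters were not matched for G or C content. A match is a match of letters only, binding was not measured, and a link between match and rise was not tested.

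In untreated irises the 10 genes were not spread alike over the cell types. *Ppargc1a*, whose product drives mitochondrial biogenesis with nuclear receptors, varied the most: its mean level was 409 ± 61.2 CPM (SD, n = 3) in stroma 1 and 10.7 ± 4.38 CPM in stroma 2, the 2 stromal types of the authors' annotation, a 38.3-fold difference. Its levels in the 3 untreated libraries did not overlap between stroma 1 and the next type, iris PE (298 ± 52.2 CPM), or between leukocytes (49.8 ± 14.7 CPM) and stroma 2. Dilator muscle had 165 ± 14.1 CPM, above sphincter 1 (133 ± 4.06 CPM) without overlap and level with the ciliary body (CB, 183 ± 53.0 CPM) within the spread. No test was made between cell types, since they were clustered on the same counts.

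Of the transcription factors, *Creb1* was highest in stroma 2 (262 ± 64.9 CPM, n = 3), overlapping the next type, leukocytes, and lay between 99.4 and 150.2 CPM in the other 9 types. *Atf1*, which binds the same element as CREB1 and dimerises with it, was highest in stroma 1 (122 ± 23.6 CPM) without overlap with dilator muscle (81.6 ± 3.30 CPM), the next in order. *Crem*, which has activator and repressor forms, was highest in CB (91.2 ± 4.12 CPM), followed by the ciliary body epithelium (CBE), iris PE and dilator muscle (78.9, 78.1 and 73.8 CPM), which overlapped, and it was lowest in endothelial cells and leukocytes (25.8 CPM each, from 11 and 16 UMIs in all).

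The coactivators had 3 different patterns. *Crtc3* was highest in stroma 1 (321 ± 41.8 CPM) without overlap with leukocytes (211 ± 39.7 CPM) and lay between 140.1 and 184 CPM in the other 8 types. *Crtc1* was lowest in stroma 1 (14.4 ± 4.72 CPM) and highest in sphincter 1 (58.3 ± 10.4 CPM), with all types from sphincter 1 down to stroma 2 (42.4 ± 2.57 CPM) overlapping their neighbours. *Crtc2* was low everywhere, between 8.71 CPM in leukocytes and 26.3 CPM in sphincter 2, and each type overlapped its neighbour in the order.

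Of the kinases, *Sik3* lay between 324 and 531 CPM and *Sik2* between 91.8 and 174 CPM in all 10 types, and each type overlapped its neighbour in the order, except sphincter 1 above stroma 1 for *Sik3*. *Sik1*, the member of the family whose own transcription is induced by cAMP, had its highest mean in CBE, 98.7 ± 125 CPM, an SD larger than the mean. Its level there was 242 CPM in untreated 1, 41.6 CPM in untreated 2 and 12.5 CPM in untreated 3. Untreated 1 had the highest *Sik1* level of the 3 untreated libraries in 9 of 10 cell types, and 10.6 times the mean of the other two in CB. CBE still had the highest mean *Sik1* level without untreated 1.

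**Figure D1:**
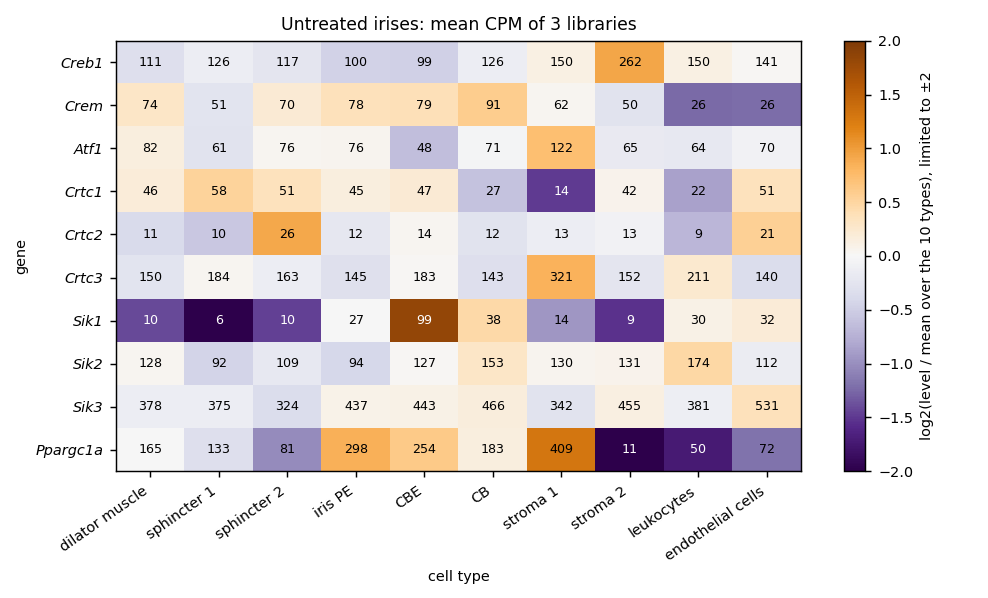
Mean level in CPM of each of the 10 genes (vertical axis) in each of the 10 cell types (horizontal axis) over the 3 untreated libraries, with colour giving the log2 ratio to the gene's mean over the types. *Ppargc1a* runs from 409 CPM in stroma 1 to 10.7 CPM in stroma 2, while *Sik3* stays between 324 and 531 CPM.

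Levels of different genes were also divided by length, as a description only, since a UMI stands for 1 molecule whatever its length. Per kilobase of gene span, which takes in the introns, the members in untreated dilator muscle ranged from 0.80 CPM per kilobase (*Crtc1*) to 2.44 CPM per kilobase (*Atf1*), with *Ppargc1a* at 1.46 and *Sik1* at 0.89. Per kilobase of exon the range was wider and the order another, from 2.00 CPM per kilobase (*Sik1*) to 40.5 CPM per kilobase (*Sik3*), with *Ppargc1a* at 25.1. The order thus depends on the divisor, and no ranking of the members is drawn from it. *Sik3* had the highest CPM of the 10 (378 ± 50.2, n = 3) and also the longest span, 211 kb, against 11.6 kb for *Sik1*.

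With dilation, 7 of the 80 pairs of member and cell type with enough counts for a test were raised and none was lowered, where a pair counts as changed when its log2 fold change lies beyond 0.6 in either direction with an edgeR adjusted p under 0.05. Over all genes 1.87% of 85092 pairs were raised and 1.47% lowered. In dilator muscle *Sik1*, *Ppargc1a*, *Sik2*, *Crem* and *Sik3* rose, 5 of 10 members, where 7.2% of 15395 genes rose and 6.14% fell. The libraries of dilated and untreated irises did not overlap for 8 of the 10 members in dilator muscle, where this held for 48.4% of all genes, and over all types for 21 of 80 pairs, where it held for 30.7%. The median log2 fold change of the members in dilator muscle was 0.58, against 0.02 for all genes. The other 2 calls were *Sik1* in iris PE and *Ppargc1a* in stroma 1. TMM normalization, which assumes that most genes do not change, moved the median gene of dilator muscle from -0.16 to 0.02 on the log2 scale. With library totals alone 726 genes rose and 1532 fell there, in place of 1109 and 945, and *Sik1* and *Ppargc1a* remained called while *Crem*, *Sik2* and *Sik3* did not.

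*Sik1* changed the most. Its level in dilator muscle was 11.8, 10.1 and 8.86 CPM in the 3 untreated libraries, 6.39, 5.32 and 7.11 CPM in the 3 constricted libraries, and 37.7 and 205 CPM in the 2 dilated libraries. Both dilated libraries were above the other 6, and they differed 5.42-fold from each other. The log2 fold change was 3.82 ± 0.55 (SE), a 14.1-fold difference after TMM (edgeR adjusted p = 0.000693). It was 2.01 without dilated 2 and 4.61 without dilated 1, and *Sik1* stayed called under each of the 19 other settings tried, so that the direction did not depend on 1 library while the size did. Dilated 1 was 3.18 times untreated 1, and dilated 2 was 21.5 times the mean of untreated 2 and 3.

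More dilator nuclei held *Sik1* RNA after dilation. At least 1 *Sik1* UMI was found in 3.72%, 3.41% and 2.88% of dilator nuclei of untreated irises, in 1.92%, 2.81% and 2.17% of those of constricted irises, and in 11.96% (exact 95% binomial interval 10.7 to 13.3, counting error only) and 41.3% (38.7 to 44.1) of those of the 2 dilated libraries. In stroma 1 nuclei of the same dilated libraries the share was 1.19% and 3.86%, at a median of 2816 and 2492 UMIs per nucleus against 3800 and 3660 in dilator muscle. Thinned to 1000 UMIs per nucleus, the dilator shares were 2.25%, 0.773% and 1.13% (untreated), 0.684%, 0.937% and 0.674% (constricted), and 4.29% and 17.6% (dilated). With 2 libraries against 3, an exact two-sided permutation test on such shares cannot go below p = 0.1, and none was made.

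*Ppargc1a* was the member with the second largest rise in dilator muscle. Its level was 181, 157 and 158 CPM in untreated, 129, 153 and 122 CPM in constricted and 360.3 and 439 CPM in dilated libraries. Both dilated libraries were above the other 6, dilated 1 being 1.99 times untreated 1, and they lay closer to each other than for *Sik1* (1.22-fold). The log2 fold change was 1.48 ± 0.16, a 2.79-fold difference (edgeR adjusted p = 0.000103), and ranged from 1.24 to 1.68 over the other settings, all of which called it. At least 1 UMI was found in 54.5% and 50.8% of dilated dilator nuclei, against 36.2% to 44.4% in untreated and 30.2% to 45.4% in constricted libraries, and after thinning in 25.0% and 23.7% against 14.1% to 15.3% and 10.5% to 12.4%. In stroma 2 nuclei, where the gene was lowest, the share in the 2 dilated libraries was 5.37% and 2.24%.

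The rise of *Ppargc1a* was uneven over nuclei, a feature examined after its values had been seen. In dilated 1, 38 of 2567 dilator nuclei (1.48%) held 10 or more *Ppargc1a* UMIs, and in dilated 2, 42 of 1306 (3.22%). None of 7733 dilator nuclei of untreated and constricted irises did. The cutoff lies just above the highest number in those nuclei, 9 in constricted 2, so that this absence follows from the cutoff and is no separate result. The highest number of UMIs in 1 nucleus was 78 in each dilated library, against 6, 7 and 7 in untreated and 5, 9 and 4 in constricted libraries. These nuclei carried 19.2% and 37.9% of all *Ppargc1a* UMIs of dilator muscle in their library. Without them the level was 296 and 283 CPM, still above the 157 to 181 CPM of untreated libraries, so that both the common level and a few very high nuclei were part of the difference. *Sik3*, the member with the highest CPM, had 10 or more UMIs in 16 and 2 dilated dilator nuclei, with a maximum of 15.

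The 80 nuclei with 10 or more *Ppargc1a* UMIs were set beside the rest of dilator muscle. Their median depth was 4084 and 4086 UMIs against 3794 and 3654 in the other dilator nuclei of dilated 1 and 2, 0 and 1 of them were called doublets, and none had a barcode shared with another library. *Adra1a*, the alpha-1A receptor of dilator muscle, was at 297 and 290 CPM in them against 345 and 241 CPM in the others, and *Myh11*, the smooth muscle myosin heavy chain, at 1444 and 1594 CPM against 1135 and 1233 CPM. *Sox10* and *Pax3*, which mark stroma 1, where *Ppargc1a* is highest, had 1 UMI and 0 UMIs in total in them. *Sik1* was found in 15.8% of them (6 nuclei) against 11.9% of the others in dilated 1, and in 64.3% (27 nuclei) against 40.6% in dilated 2. *Crem* was lower in them than in the others in dilated 1 (40.0 against 96.5 CPM) and higher in dilated 2 (239.6 against 107 CPM). A single UMI in these nuclei of dilated 1 stood at 5.71 CPM, so the *Crem* value of dilated 1 rests on few UMIs. The 2 libraries went opposite ways, and no direction is read from them. Nuclei with 10 or more *Ppargc1a* UMIs were also found in stroma 1, in 4 of 1292 untreated, 5 of 538 constricted and 7 of 485 dilated nuclei. Reaching the cutoff was thus not particular to dilator muscle or, in stroma 1, to dilation. The untreated level was 409 CPM in stroma 1 and 165 CPM in dilator muscle, so the same cutoff does not compare like with like. In iris PE such nuclei were 2 of 3719 untreated, 0 of 2247 constricted and 5 of 2738 dilated nuclei.

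**Figure D2:**
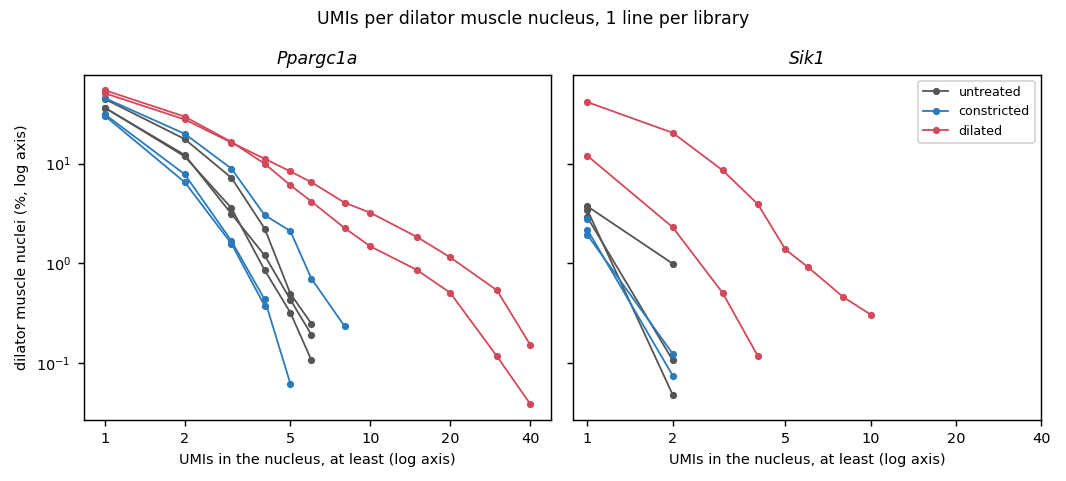
Share of dilator muscle nuclei (vertical axis, percent, log scale) with at least the number of UMIs on the horizontal axis (log scale), for *Ppargc1a* and *Sik1*, with 1 line per library coloured by condition. For *Ppargc1a* the 2 dilated lines extend past 10 UMIs, which no dilator nucleus of the other 6 libraries reached, and for *Sik1* dilated 2 lies above dilated 1.

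*Sik2* and *Sik3*, the other kinases of the family, rose less. *Sik2* was at 149, 116 and 119 CPM in untreated, 122, 123 and 104 CPM in constricted and 196 and 162 CPM in dilated dilator muscle, a log2 fold change of 0.69 ± 0.14 (edgeR adjusted p = 0.00567). *Sik3* was at 436, 346 and 352 CPM in untreated, 401, 332 and 297 CPM in constricted and 574 and 454 CPM in dilated dilator muscle, a log2 fold change of 0.64 ± 0.15 (edgeR adjusted p = 0.0124). Both dilated libraries were above all others for each gene, with dilated 2 the closer to untreated 1. The call of *Sik2* was lost without dilated 1 (log2 fold change 0.62). That of *Sik3* was lost without dilated 1, untreated 2 or untreated 3, with log2 fold changes of 0.54 to 0.73 over the libraries left out, and with the replicate block (0.58) or the library-number block (0.59), where the fold alone fell under the threshold. Untreated 1 was the highest untreated library for *Sik2* in 9 and for *Sik3* in 8 of 10 types. Dilated 1 was above dilated 2 for *Sik2* in all 10 types and for *Sik3* in 9, whereas for *Sik1* dilated 2 was above dilated 1 in all 10.

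Among the transcription factors *Crem* rose. It was at 71.1, 71.9 and 78.5 CPM in untreated, 62.5, 78.0 and 62.8 CPM in constricted and 95.6 and 112 CPM in dilated dilator muscle, with no overlap, a log2 fold change of 0.67 ± 0.17 (edgeR adjusted p = 0.0183). The call was lost without dilated 2 or untreated 2, with log2 fold changes of 0.48 to 0.85 over the libraries left out. *Atf1* was at 82.9, 84.0 and 77.8 CPM in untreated and 102 and 103 CPM in dilated libraries, and its log2 fold change of 0.52 ± 0.14 (edgeR adjusted p = 0.0262) was under the fold threshold. *Creb1* was at 94.8, 119 and 119 CPM in untreated and 130.2 and 132 CPM in dilated libraries, a log2 fold change of 0.41 ± 0.16 that missed the threshold (edgeR adjusted p = 0.109). For *Atf1* and *Creb1* the dilated and constricted libraries did not overlap either.

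The CRTC coactivators did not pass the test in dilator muscle. *Crtc3* was at 139, 162 and 149 CPM in untreated and 138 and 125 CPM in dilated libraries, lower without overlap by CPM, with a log2 fold change of -0.01 (95% interval -0.31 to 0.30). *Crtc1* was at 51.1, 43.9 and 42.2 CPM in untreated and 44.6 and 27.7 CPM in dilated libraries, with a log2 fold change of -0.14 (95% interval -0.55 to 0.27). *Crtc2* was at 11.8, 11.3 and 9.17 CPM in untreated and 13.8 and 11.2 CPM in dilated libraries, with a log2 fold change of 0.42 and the widest interval of the 3 (-0.11 to 0.96). The sign of the *Crtc1* and *Crtc3* values changed under some settings, so neither has a direction in these data. A change of 1 log2 unit lies outside all 3 intervals.

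**Figure D3:**
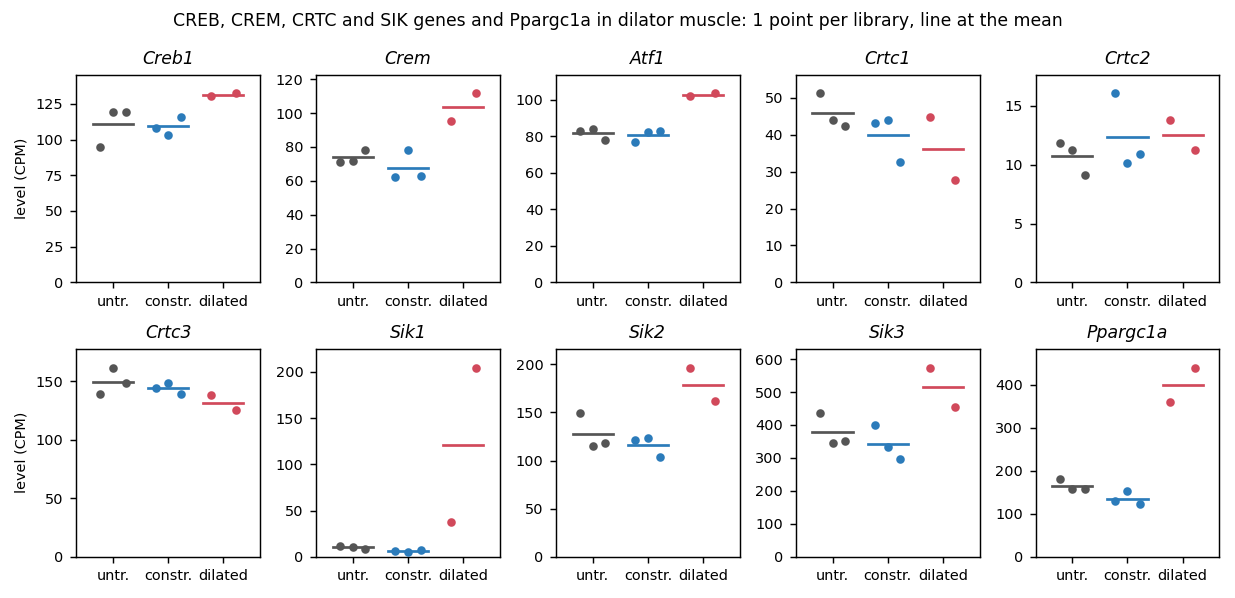
Level of each of the 10 genes in dilator muscle in CPM (vertical axes, each from 0), with 1 point per library and a line at the mean of the 3 untreated, 3 constricted and 2 dilated libraries. Both dilated points lie above all others for *Creb1*, *Crem*, *Atf1*, *Sik1*, *Sik2*, *Sik3* and *Ppargc1a*, and the gap between the 2 dilated points is largest for *Sik1*.

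The level of dilator markers moved with dilation in the same nuclei. The summed CPM of the 3 dilator markers was lower in dilated than in untreated dilator nuclei without overlap, as given above. That of the 4 stroma 1 markers was 657 to 784 CPM in dilated against 1012 to 1095 CPM in untreated dilator nuclei, and that of the 2 iris PE markers was 1359 to 1512 CPM against 1357 to 1654 CPM. Leukocyte markers were at 26.7 to 37.5 CPM against 26.7 to 43.0 CPM, and endothelial markers at 20.0 to 31.0 CPM against 14.8 to 32.4 CPM. None of these lists was higher in both dilated libraries than in the untreated ones, and none of their genes was at 0. The part of the markers' movement in the members' rise was not tested.

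Outside dilator muscle, *Sik1* rose in iris PE, the pigment epithelium behind the muscle. It was at 35.1, 28.4 and 18.7 CPM in untreated, 16.4, 18.9 and 21.3 CPM in constricted and 53.2 and 102 CPM in dilated libraries, a log2 fold change of 1.61 ± 0.29 (edgeR adjusted p = 0.0273), where 0.453% of 14128 genes rose. The call was lost without dilated 2, constricted 2, untreated 2 or untreated 3, with log2 fold changes of 1.03 to 2.06 over the libraries left out. In stroma 2, *Sik1* was at 12.1, 8.13 and 8.21 CPM in untreated and 15.4 and 26.9 CPM in dilated libraries, a log2 fold change of 1.24 ± 0.35 that missed the threshold (edgeR adjusted p = 0.128). In CBE and CB, where untreated 1 was at 242 and 95.3 CPM, the dilated libraries lay within the untreated range, and the log2 fold changes were -0.27 ± 0.62 and 0.28 ± 0.61. In stroma 1 the value was 0.04 ± 0.69. In sphincter 2, where *Sik1* had too few counts for the test, it was at 18.3, 4.16 and 7.41 CPM in untreated and 11.1 and 123 CPM in dilated libraries, the last being dilated 2.

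*Ppargc1a* rose in stroma 1, where it was already highest. Its level was 479, 384 and 365 CPM in untreated, 391, 480.3 and 537 CPM in constricted and 654 and 732 CPM in dilated libraries, a log2 fold change of 0.79 ± 0.17 (edgeR adjusted p = 0.0293), where 0.786% of 8911 genes rose. The call was lost without either dilated library and without untreated 2 or untreated 3, with log2 fold changes of 0.66 to 0.93 over the libraries left out. In sphincter 1 the 2 dilated libraries, 84.5 and 108 CPM, were below the untreated ones (129 to 137 CPM) without overlap, which held for 28.8% of the genes of that type, with a log2 fold change of -0.42 ± 0.25 (edgeR adjusted p = 0.607). In iris PE the value was 0.37 ± 0.18, in CB 0.54 ± 0.24 and in sphincter 2 0.55 ± 0.30, none of which passed the test.

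Some other pairs moved without passing the threshold. *Crem* in CB was at 95.3, 87.1 and 91.1 CPM in untreated, 82.8, 74.9 and 98.0 CPM in constricted and 178 and 158 CPM in dilated libraries. The log2 fold change there was 0.93 ± 0.23, but the edgeR adjusted p was 0.209 in a cell type where 0.0665% of 7522 genes rose. In sphincter 2 *Sik2* was at 128, 121 and 77.1 CPM in untreated and 193 and 167 CPM in dilated libraries (0.89 ± 0.27, edgeR adjusted p = 0.0685), and *Sik3* at 330, 285 and 357 CPM in untreated and 633 and 402 CPM in dilated libraries (0.74 ± 0.23, edgeR adjusted p = 0.0735). Fitted with the libraries of the 2 conditions alone, both sphincter 2 genes passed the threshold. *Creb1* in stroma 2 was lower on average in dilated (175 and 204 CPM) than in untreated libraries (190, 281 and 316 CPM), with a log2 fold change of -0.44 ± 0.23 and overlap between the groups. In leukocytes 4 and in endothelial cells 2 of the 10 members had enough counts for a test, and none was called.

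**Figure D4:**
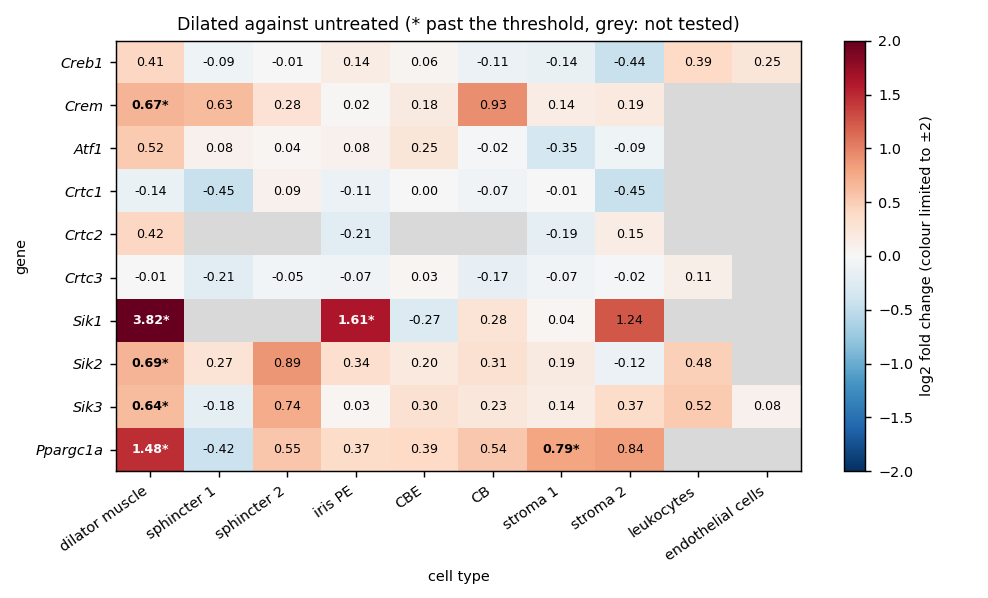
Log2 fold change, dilated against untreated, for each of the 10 genes (vertical axis) in each cell type (horizontal axis), with grey where counts were too low for a test and an asterisk where the threshold was passed. The 7 asterisks comprise 5 in dilator muscle, *Sik1* in iris PE and *Ppargc1a* in stroma 1.

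Whether the dilation effect, as a signed log2 fold change, differed between dilator muscle and each other type was tested in joint fits with a term for each library. Of the 90 pairs of member and other type, 18 passed an adjusted p of 0.05, where 5.08% of all such pairs did. All 18 had the higher signed log2 fold change in dilator muscle. In some the mean level in the other type was lower in dilated libraries, so a difference is not always a larger response. Examples were *Creb1* in stroma 2 (262 CPM in untreated, 190 CPM in dilated) and *Ppargc1a* in sphincter 1 (133 and 96.5 CPM). *Ppargc1a* differed from 6 types and most from sphincter 1 (1.94 ± 0.24 on the log2 scale, edgeR adjusted p = 2.8e-10), and also from stroma 1, where it had risen too (0.69 ± 0.16, edgeR adjusted p = 0.00368). *Sik1* differed from 5 types, by 3.62 ± 0.46 from stroma 1 and by 1.77 ± 0.33 from iris PE. The SEs of these fits draw on the spread of other genes too, and can be smaller than a gene's own spread between libraries. *Sik3* differed from 3 types, and *Crem*, *Atf1*, *Creb1* and *Sik2* from 1 each. No pair of the 3 CRTC genes passed. Without a term for the library 3 pairs passed.

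**Figure D5:**
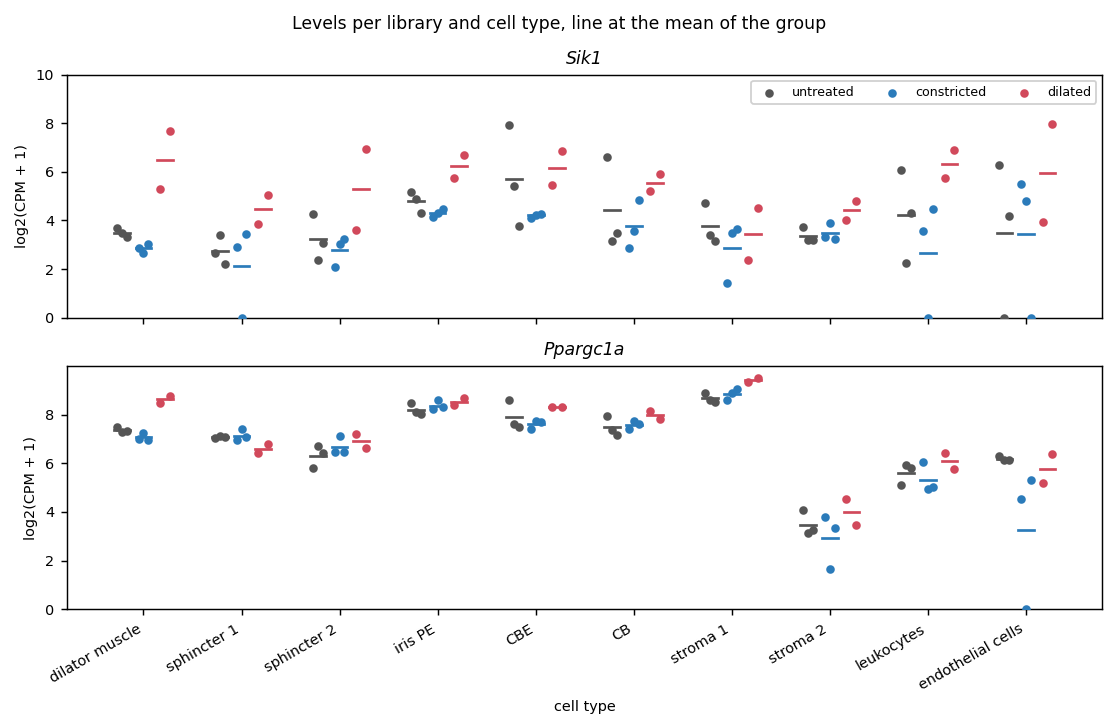
Level of *Sik1* (upper panel) and *Ppargc1a* (lower panel) as log2(CPM + 1) on the vertical axis in each cell type on the horizontal axis, with 1 point per library and a line at the mean of each condition. *Sik1* of untreated 1 stands at 242 CPM in CBE, and *Ppargc1a* is at 2.15 to 22.4 CPM in stroma 2 in all 8 libraries.

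With constriction no member was raised or lowered in any type, where 0.0094% of pairs over all genes were raised and 0.00235% lowered. An unadjusted p under 0.05 was found for 6 of the 80 pairs, and 9 pairs did not overlap, where 10.5% of all pairs did not. *Sik1* in CBE had the lowest of these p-values, with 16.2, 17.7 and 18.3 CPM in constricted libraries and the untreated values given above, which rest on untreated 1 (log2 fold change -2.26 ± 0.79, edgeR adjusted p = 0.507). In dilator muscle *Sik1* was at 5.32 to 7.11 CPM in constricted against 8.86 to 11.8 CPM in untreated libraries and *Ppargc1a* at 122 to 153 against 157 to 181 CPM, both below without overlap, a separation in either direction found for 9.34% of all genes, and neither past the test (edgeR adjusted p = 1 for each). The median log2 fold change over the 80 pairs was -0.09.

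Against constricted irises, which had also received drops, 7 of 80 pairs were higher in dilated irises and none lower, where 1.35% of all pairs were higher and 1.31% lower. These values share the dilated libraries with the first comparison and are not independent of it. In dilator muscle the same 5 genes were higher, by 4.45 ± 0.58 (*Sik1*), 1.76 ± 0.16 (*Ppargc1a*), 0.80 ± 0.17 (*Crem*), 0.79 ± 0.14 (*Sik2*) and 0.75 ± 0.15 (*Sik3*) on the log2 scale, where 5.59% of all genes were higher. *Sik1* in iris PE was higher by 2.07 ± 0.31 (edgeR adjusted p = 0.00975), where 0.411% of all genes were higher. *Sik3* in sphincter 2 was higher by 0.93 ± 0.24 (edgeR adjusted p = 0.0232), with 308, 346 and 194 CPM in constricted libraries, a call lost under 6 of the other 19 settings, and 0.971% of all genes of that type were higher. *Ppargc1a* in stroma 1 was higher by 0.57 ± 0.18 and did not pass (edgeR adjusted p = 0.201). The dilated and constricted libraries did not overlap in 34 of 80 pairs, where 24.8% of all pairs did not.

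The rest of the pathway was described from 6 lists of genes, to be read against the 7.2% of all genes of dilator muscle that rose and the 6.14% that fell. For 5 of the lists, all but that of the target genes, the counts of 1 to 3 called genes are small and near these shares, and nothing is read from them about the list. Of the 9 PKA subunits and inhibitors tested in dilator muscle 1 rose with dilation and none fell (median log2 fold change 0.06). It was *Prkar1a*, a regulatory subunit that holds PKA inactive, at 38.0, 37.9 and 36.4 CPM in untreated and 52.8 and 64.7 CPM in dilated libraries (0.84 ± 0.18, edgeR adjusted p = 0.00704, lost without dilated 2). The next of the list by p, *Prkar2b* (0.70 ± 0.26) and *Pkia*, a PKA inhibitor gene (-0.53 ± 0.21), did not pass. Of 14 CREB coactivators and CREB kinases 2 rose and 1 fell (median 0.17). *Rps6ka3*, which encodes the kinase RSK2 that phosphorylates CREB1 downstream of ERK, was at 100.4, 96.8 and 98.6 CPM in untreated and 217 and 152 CPM in dilated libraries (1.09 ± 0.17, edgeR adjusted p = 0.00101). *Rps6ka2*, of the same family, rose by 1.02 ± 0.25 (edgeR adjusted p = 0.0167, lost without dilated 1, untreated 2 or untreated 3), and *Rps6ka5*, which encodes MSK1, another CREB kinase, fell by 0.83 on the log2 scale from 117 to 137 CPM to 66.7 and 58.7 CPM (edgeR adjusted p = 0.00324). The coactivators CBP (*Crebbp*, 274, 254 and 253 CPM in untreated, 287 and 244 CPM in dilated libraries) and p300 (*Ep300*) did not pass the test.

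Of 7 genes for calcineurin and its regulators 1 rose (median 0.09), again beside 7.2% of all genes. *Rcan1*, a calcineurin inhibitor, was at 33.0, 24.5 and 27.4 CPM in untreated and 51.2 and 72.5 CPM in dilated libraries (1.35 ± 0.23, edgeR adjusted p = 0.00187). Its catalytic subunit gene *Ppp3ca* had a log2 fold change of 0.48 (edgeR adjusted p = 0.0495), under the fold threshold, and *Rcan2* (0.99 ± 0.37) did not pass. Of 9 genes for the SIK-activating kinase LKB1 with its partners and for the class IIa histone deacetylases, which SIKs phosphorylate, 1 rose (median 0.06). It was *Hdac4*, at 47.4, 44.6 and 43.2 CPM in untreated and 70.0 and 56.5 CPM in dilated libraries (0.68 ± 0.15, edgeR adjusted p = 0.00841, lost without dilated 1 or untreated 3). *Cab39l* (-0.40 ± 0.14) and *Strada* (-0.29 ± 0.16), which encode partners of LKB1, did not pass. Of 9 genes of the PGC-1 family and its partners 1 rose (median 0.07), *Ucp2*, which encodes a mitochondrial carrier, from 38.6 to 39.9 CPM to 64.0 and 97.6 CPM (1.24 ± 0.24, edgeR adjusted p = 0.00392, lost without dilated 2). The PGC-1β gene *Ppargc1b*, at 261, 250 and 234 CPM in untreated and 273 and 226 CPM in dilated libraries, did not pass the test, nor did the partners *Esrrg* (-0.43 ± 0.24) and *Tfam* (0.29 ± 0.21).

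The textbook cAMP and CREB target genes moved the most of the 6 lists. Neither cAMP nor CREB activity was measured, and which signal raised these genes was not tested. The name of the list is therefore no reading of that activity. Of the 17 tested in dilator muscle 14 rose and none fell, with a median log2 fold change of 2.67, where 7.2% of all genes rose. Of the 24 genes listed, 22 were in the data and 5 of these had too few counts. In every type the filter on low counts took in the dilated libraries, so a gene low elsewhere was tested only if high there. *Maff* was such a gene, at most 1.87 CPM in untreated, 1.16 CPM in constricted and at least 5.63 CPM in dilated libraries. *Nr4a3* was another, with 2.49 CPM in untreated 1 alone and at most 0.422 CPM in the other untreated and constricted libraries. Such genes can raise the count of 14 and the median, by an amount not tested. The list was also chosen with earlier results of these data known, so the count of 14 is no independent test. *Nr4a1*, *Nr4a2* and *Nr4a3*, the orphan nuclear receptors that are classic CREB targets, rose by 4.64 ± 0.66, 4.86 ± 0.79 and 5.38 ± 1.06. *Nr4a1* was at 14.3, 9.99 and 9.49 CPM in untreated and 50.4 and 400.4 CPM in dilated libraries, and *Nr4a3* at 2.49, 0.422 and 0.316 CPM in untreated and 3.06 and 44.9 CPM in dilated libraries. *Fos*, the immediate early gene, was at 9.35, 1.83 and 1.11 CPM in untreated and 14.7 and 180.3 CPM in dilated libraries (5.47 ± 0.96, edgeR adjusted p = 0.00249). As for *Sik1*, dilated 2 was the higher of the 2 dilated libraries for all of these.

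Others of the list were closer between the 2 dilated libraries. *Cebpb*, a transcription factor gene, was at 11.2, 4.50 and 5.85 CPM in untreated and 42.1 and 82.8 CPM in dilated libraries (3.52 ± 0.38, edgeR adjusted p = 9.7e-05). *Id1*, an inhibitor of helix-loop-helix factors, was at 6.86, 8.44 and 5.06 CPM in untreated and 42.4 and 53.1 CPM in dilated libraries (2.98 ± 0.32, edgeR adjusted p = 0.0001). *Nfil3* (1.95 ± 0.34), *Pde4b*, which encodes a phosphodiesterase that degrades cAMP (1.67 ± 0.34), and *Maff* (3.61 ± 0.55) were called under all settings in which they were tested, as were *Gem* (2.12 ± 0.34), *Cebpb*, *Id1*, *Nr4a1* and *Nr4a2*. *Dusp1* (2.82 ± 0.53), *Per1* (2.67 ± 0.56), *Fos* and *Nr4a3* lost the call without dilated 2, *Irs2* (1.04 ± 0.26) without dilated 2 or untreated 2, and *Rgs2* (2.02 ± 0.62, with 0.422 to 1.87 CPM in untreated libraries) in 4 of 8 leave-one-out fits. *Per1* was at 29.3 CPM in dilated 1 and 126 CPM in dilated 2, and constricted 3, at 34.3 CPM, was above dilated 1. Against constricted irises 12 of the 17 target genes were higher in dilated dilator muscle, where 5.59% of all genes were. *Irs2* and *Rgs2* were not among them. *Pde4d*, another cAMP phosphodiesterase gene, was at 2725, 2720 and 2800 CPM in untreated and 2157 and 2266 CPM in dilated libraries and was not called. The sum over the 22 genes was 3086, 3030 and 3129 CPM in untreated and 2802 and 4178 CPM in dilated libraries, since *Pde4d* made up most of it. In 11 of the 22 genes untreated 1 was the highest untreated library in dilator muscle.

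In other types fewer of the listed genes moved. In most of them fewer could be tested, so that the counts there do not show a weaker response. Target genes tested numbered 17 in stroma 2 and 16 in iris PE, near the 17 of dilator muscle. Their median log2 fold changes were 1.16 and 0.74, smaller than the 2.67 of dilator muscle, a difference that was not tested. In stroma 2, *Pkia*, *Pkig*, *Prkar2b*, *Rcan2*, *Dusp1*, *Gem*, *Nr4a1*, *Ptgs2* and *Rgs2* rose, where 1.35% of all genes did. The last 5 are of the 17 target genes tested there. In sphincter 2 *Gem*, *Nfil3* and *Nr4a2* rose (3 of 8 target genes tested, 1.46% of all genes). In iris PE *Cebpb*, *Fos* and *Pde4b* rose (3 of 16, 0.453% of all genes), and in leukocytes *Cebpb* and *Pde4b* (2 of 3, 0.76% of all genes). *Hdac5* fell in sphincter 1 (log2 fold change -2.43 ± 0.53), where 1.32% of all genes fell. With constriction none of the listed genes passed the test in any cell type, where 0.0118% of all pairs changed in either direction.

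The genes whose levels over the 30 means of cell type and condition were most like those of each member were named by Pearson's r of log2(CPM + 1) among 13550 genes, a description over means that share libraries. For *Sik1* they were *Junb* (r = 0.80), *Dusp1* (0.78) and *Fosb* (0.73), and for *Ppargc1a* they were *Eya1* (0.94), *Slc6a17* (0.92) and *Mlph* (0.90). For *Crem* they were *Atp5g1* (0.85), *Cox5a* (0.81) and *Hist1h2bc* (0.75), for *Crtc3* *4930533B01Rik*, *Mgat5* and *Spire1* (0.90 to 0.91), and for *Creb1* *Scarb2*, *Abi1* and *Cop1* (0.85 to 0.88). The best match was *Slc24a5* for *Atf1* (0.81), *Nexmif* for *Crtc1* (0.88), *Zfp26* for *Crtc2* (0.77), *Aff4* for *Sik2* (0.77) and *Prr14* for *Sik3* (0.78).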

How the data were processed

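Per the labels and the study's methods, each library was 1 pool of irises, collected in 5 batches and sequenced in 2 runs that the labels do not assign to libraries. The authors aligned 10x reads to mm10 exons and introns with Cell Ranger 3.1.0 and deposited raw UMI counts for every gene in every nucleus. They kept nuclei with 500 to 6000 transcripts and found the cell types by clustering. Cluster identities were then assigned by immunostaining and in situ hybridization. The deposited percent of mitochondrial UMIs was at most 1% by their filter. For each library these counts were added up by cell type, and each type was fitted over all 8 libraries (edgeR 4.0.16, filterByExpr, TMM, quasi-likelihood F-test, Benjamini-Hochberg over all genes of the type, R 4.3.3). The SEs of these fits were derived from the log2 fold change and the F value of the test, and the 95% intervals from these SEs. The study's methods call the libraries independent biological replicates. Libraries are named by the replicate numbers of the labels.

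The dilation effect in dilator muscle was compared with that in each other type in a joint fit with a term per library. The counts were also fitted with DESeq2 1.42.0 (its own size factors), other scalings, filters and blocks, without nuclei called doublets by Scrublet (scanpy 1.11.5, 359 nuclei, otherwise kept), thinned to 1000 UMIs per nucleus, and with each library left out. Fits were also tried on simulated counts with known changes, drawn at a fixed spread and without effects shared within a library. That simulation does not cover the larger spread between libraries seen here. Shares of nuclei have exact Clopper-Pearson intervals, and intervals and the floor of 3 counts cover counting error only.

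All 10 members are named, with the listed genes called in dilator muscle, the 3 lowest p-values of each list, and the 3 most alike genes per member. The members and lists were chosen with earlier results of these data known. The listed genes *Vgf*, *Pck1* and *Ppp3r2* were not analysed here. *Crem*, *Crtc3* and *Sik2* overlap a gene on the opposite strand, which this stranded assay counts separately. Gene spans are from the GRCm38 annotation.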

Additional observations from a re-analysis of the deposited data

Results flagged for a closer look

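The dilation effect differed between dilator muscle and another cell type for 18 pairs by the test of the difference itself. All had the higher signed log2 fold change in dilator muscle, and the joint fits (edgeR) share the dilator libraries. For *Ppargc1a* the difference of the log2 fold changes was 1.94 ± 0.24 (SE) against sphincter 1, 1.05 ± 0.11 against iris PE, 0.95 ± 0.21 against CBE, 0.94 ± 0.26 against sphincter 2, 0.80 ± 0.23 against CB and 0.69 ± 0.16 against stroma 1. For *Sik1* it was 3.62 ± 0.46 against stroma 1, 3.03 ± 0.31 against CBE, 2.31 ± 0.44 against CB, 2.13 ± 0.45 against stroma 2 and 1.77 ± 0.33 against iris PE. The CBE and CB values rest in part on untreated 1, where *Sik1* was at 242 and 95.3 CPM. Over the untreated libraries *Sik1* ran from 12.5 to 242 CPM in CBE and from 8.86 to 11.8 CPM in dilator muscle. The SEs come from fits that also draw on the spread of other genes. They do not measure this spread between libraries, so the CBE value is less precise than its SE of 0.31.

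For *Sik3* the difference was 0.84 ± 0.21 against sphincter 1, 0.57 ± 0.11 against iris PE and 0.53 ± 0.16 against stroma 1. For *Crem* it was 0.59 ± 0.14 against iris PE, for *Atf1* 0.86 ± 0.20 against stroma 1, for *Creb1* 0.86 ± 0.15 against stroma 2 and for *Sik2* 0.79 ± 0.14 against stroma 2. *Atf1* and *Creb1* were not called in dilator muscle by themselves.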

How the results depend on the processing

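The 7 pairs of member and type called with dilation became 4 with library totals only and 3 to 8 with 1 library left out (3 without untreated 2, 4 without untreated 3 or dilated 2). With constriction the count of 0 became 1 without a filter on low counts. Against constricted irises 7 became 11 without that filter and 5 to 8 with 1 library left out. The 39 calls in the pathway lists became 71 without the filter, 59 with a block of consecutive library numbers and 20 to 43 with 1 library left out (20 without dilated 2, 24 without untreated 2, 23 without untreated 3). The 18 differences between cell types became 3 without a library term and 10 to 19 with 1 library left out (10 without dilated 2). In dilator muscle the log2 fold change of *Crtc3* turned from -0.01 to 0.0015 with the replicate block and 0.019 with the library-number block, and was -0.087 to 0.081 with 1 library left out (positive without untreated 2). That of *Crtc1* turned from -0.14 to 0.012 after thinning, and was -0.45 to 0.090 with 1 library left out (positive without dilated 2). The causes were not tested.

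The replicate numbers did not pair the samples: in dilator muscle the deviations of constricted 2 correlated with those of dilated 2 and untreated 2 at -0.03 and -0.02. Libraries of 1 series of consecutive numbers in the labels did deviate together in dilator muscle. Correlations were 0.17 to 0.45 for each such pair, against -0.45 to 0.09 for other pairs. The 2 dilated libraries deviate from their mean by equal and opposite amounts. Their correlations with any other library therefore differ only in sign (0.45 and -0.45 with constricted 1), and such pairs are not separate evidence. What they share is not given in the labels, and constricted 2 is alone in its series. With the library-number block 7, 0 and 7 pairs of member and type were called in the 3 comparisons. With the replicate block the counts were 6 (dilated against untreated), 0 (constricted against untreated) and 7 (dilated against constricted). Over all genes of dilator muscle 1109 rose and 945 fell with dilation, against 1658 and 1480 with the library-number block, 624 and 462 without dilated 2, 643 and 500 without untreated 2, 679 and 524 without untreated 3, and 544 that fell without dilated 1. Of 928 further values for 49 single-gene results (1 gene in 1 cell type and comparison), 862 kept direction and side of the threshold. Of the others, 54 lost a call, 7 gained one and 5 changed sign. Without untreated 1 the highest untreated type changed for *Crtc1* and *Crtc2*. Leukocytes and endothelial cells had 12 to 106 nuclei per library, which limits what could be tested there. Leaving out the nuclei with shared barcodes was chosen after seeing the data.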
